A study of Mus musculus with 12 samples.

Results

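The 10 genes described here encode receptors and bridging molecules of efferocytosis, the clearance of apoptotic cells by phagocytes. They were chosen by symbol from the 37775 genes of the expression table, and all 10 (Mertk, Axl, Tyro3, Gas6, Pros1, Mfge8, Itgav, Itgb5, Stab1 and Timd4) were found there and passed the filter on low counts, after which 22118 genes were tested. Bulk RNA-seq was performed on 4 monocyte-macrophage (Mo-Mac) fractions, with 3 libraries each, from the ear skin of WT BALB/c mice on day 5 after antigen challenge in IgE-CAI, a model of chronic allergic skin inflammation. All mice had received 300 μg of anti-TNP IgE intravenously and, on the next day, 10 μg of TNP-conjugated OVA in the right ear and control OVA in the left ear. The mice were male and 7 to 12 weeks old. The fractions were Ly6ChiPD-L2lo classical monocytes, Ly6ChiPD-L2hi early CMDMs (classical monocyte-derived macrophages), Ly6CloPD-L2hi late CMDMs and Ly6CloPD-L2lo resident-like macrophages, sorted by surface Ly6C and PD-L2, and each library was made from 5000 to 80000 cells. In the study's flow cytometry these 4 fractions lay within a CD45+CD11b+SiglecF-Ly6G- gate. The study's methods for the bulk libraries name the sorting of the 4 fractions but not this gate. No uninflamed skin was among these libraries. The labels do not say whether the 3 libraries of a fraction came from separate mice, so the p-values measure the spread between these samples, which may be technical.

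Apoptotic cells expose phosphatidylserine on their surface. Receptors such as Stabilin-1 and TIM-4 bind it directly, whereas the TAM receptor tyrosine kinases (Tyro3, Axl and Mertk) and the integrin αvβ5 bind it through soluble bridging molecules, namely Gas6 and protein S for the TAM receptors and MFG-E8 for the integrin. Mertk is known as an efferocytosis receptor of tissue macrophages at rest, and Axl as a TAM receptor that is induced under inflammatory conditions.

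Levels are TMM-normalized CPM (counts scaled to the size and composition of each library), as the mean ± SD of 3 libraries. Fractions were compared with edgeR's quasi-likelihood test on all 12 libraries, and genes were called where p, adjusted over the 22118 tested genes by the Benjamini-Hochberg method, was under 0.05. Total counts were between 12537178 and 19844113 per library, at which 3 counts, the limit that a count of 0 allows, correspond to 0.151 to 0.239 CPM. This limit covers counting error only. The counts of single members ranged from 30 for Tyro3 to 14345 for Mfge8. The 6 comparisons share libraries and are not independent of each other.

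The fractions were checked with lists of cell type markers. The summed level of 8 monocyte and macrophage genes was 7425 to 9337 CPM in the classical monocyte libraries, 2808 to 4020 CPM in the early CMDM libraries, 6693 to 7730 CPM in the late CMDM libraries and 9601 to 10610 CPM in the resident-like libraries. Early CMDMs, the lowest of the 4 for this list, were the highest for 6 keratinocyte genes, at 17096 to 27284 CPM against 1871 to 4050 CPM in the other libraries. The 6 fibroblast genes had 2988 to 5588 CPM in the classical monocyte libraries and early CMDMs and 275.6 to 498.6 CPM in the late CMDM libraries and resident-like macrophages. The summed level of 7 endothelial genes was highest in late CMDMs, at 280.1 to 421.8 CPM against 64.85 to 203.4 CPM elsewhere. Of these genes Ccl21a, Lyve1, Prox1 and Flt4 were called higher in late than early CMDMs, Cdh5 was called lower (mean 12.3 against 19.7 CPM), and Pecam1 and Emcn were not called. The summed level of 6 dendritic cell genes was highest in resident-like macrophages, at 606.5 to 644.9 CPM against 68.1 to 317.1 CPM elsewhere, of which Cd209a alone had a mean of 555 CPM. Flt3, Clec9a and Ccr7 had their highest means in classical monocytes, at 68.9, 8.37 and 35.2 CPM against 27.0, 0.439 and 30.7 CPM in the resident-like libraries. The 3 Langerhans cell genes had 921.3 to 1221 CPM in the resident-like libraries, 604.1 to 939.3 CPM in the early CMDM libraries and 108 to 252.2 CPM in the other 2 fractions, and Cd207 among them, which encodes langerin, had a mean of 819 CPM in the resident-like libraries against 38.2 to 64.4 CPM elsewhere. The 6 T and innate lymphoid genes had 188 to 251.9 CPM in the classical monocyte libraries and 32.5 to 95.55 CPM elsewhere, although Gata3 was highest in early CMDMs (mean 61.8 CPM). The 6 basophil and mast cell genes had 47.62 to 89.87 CPM in the resident-like libraries and 7.349 to 39.46 CPM elsewhere. Over all libraries 5 neutrophil genes had 74.99 to 136.8 CPM and 4 B cell genes 37.56 to 132.4 CPM. No gene of these lists was at 0 in all libraries of a fraction. In bulk libraries, fewer cells of a type and less RNA per cell cannot be told apart.

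**Figure D1:**
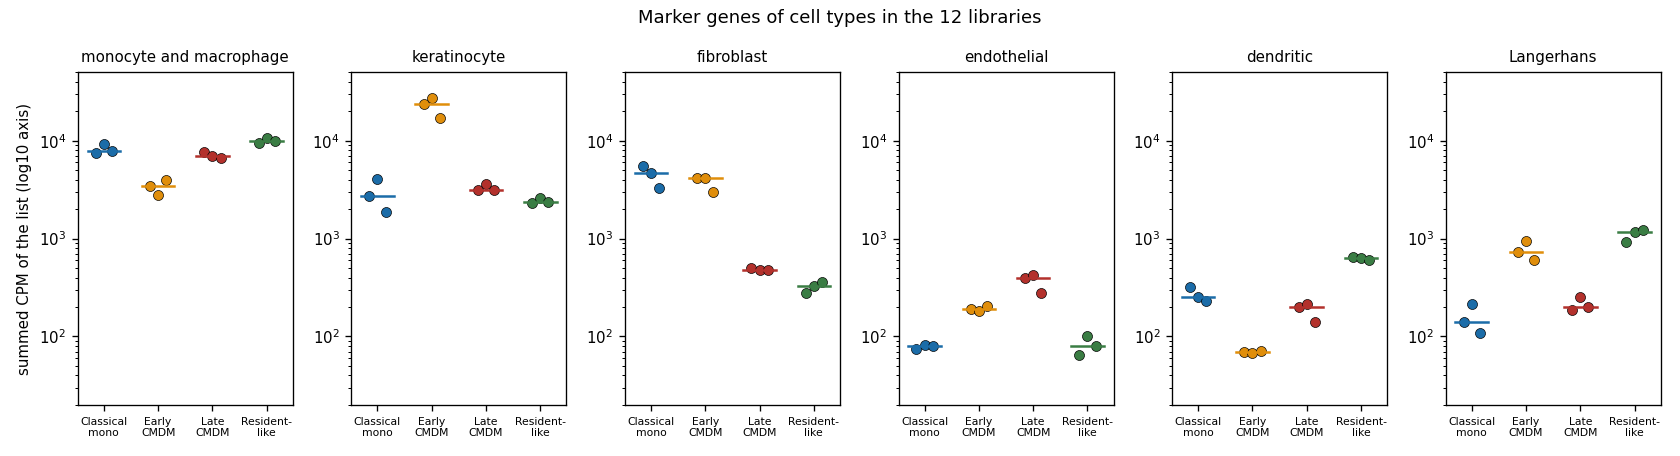
Summed TMM-normalized CPM (log10 axis) of 6 marker lists in the 12 libraries. Points are libraries and lines are medians of 3. The early CMDM libraries are the lowest for monocyte and macrophage genes, at 2808 to 4020 CPM, and the highest for keratinocyte genes, at 17096 to 27284 CPM.

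The members did not follow a common course. Under TMM normalization, late CMDMs had the highest mean levels of Mertk, Gas6, Pros1 and Stab1 and the lowest of Axl. Resident-like macrophages had the highest levels of Mfge8 and Timd4, early CMDMs had the highest of Tyro3 and Itgb5, and Itgav was not called in any of the 6 comparisons. Against classical monocytes, 6 members were higher in early CMDMs (Tyro3, Gas6, Pros1, Mfge8, Itgb5 and Stab1), where 24.2% of all tested genes were called higher, and 1 was lower (Timd4), where 20.6% were called lower. The median log2 fold change was 0.58 over the members and -0.013 over all tested genes. From early to late CMDMs, 5 members rose (Mertk, Gas6, Pros1, Stab1 and Timd4), against 14.4% of all genes, although Gas6 and Pros1 changed sign when libraries were scaled to pan-leukocyte genes. In the same comparison 3 fell (Axl, Tyro3 and Itgb5), against 17.5%, with a median of 0.15 against 0.021 over all genes. From late CMDMs to resident-like macrophages, 3 rose (Axl, Mfge8 and Timd4), against 12.7% of all genes, and 5 fell (Mertk, Tyro3, Gas6, Pros1 and Stab1), against 15.4%, with a median of -0.35 against 0.0028.

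In the comparisons that skip a fraction, 4 members were higher in late CMDMs than in classical monocytes (Mertk, Gas6, Pros1 and Stab1), against 18.1% of all tested genes, and 1 was lower (Axl), against 17.5%. Resident-like macrophages exceeded classical monocytes in 5 members (Gas6, Pros1, Mfge8, Stab1 and Timd4), against 10.8% of all genes, and none was called lower, where 12.9% of all genes were. None of the 10 was lower there by DESeq2 either, or at an unadjusted p under 0.05 other than Axl, whose log2 fold change was -0.56 with an unadjusted p of 0.0234 in edgeR's quasi-likelihood test. Between resident-like macrophages and early CMDMs, 2 members were higher in the former (Mfge8 and Timd4), against 21.4%, and 3 were lower (Tyro3, Gas6 and Itgb5), against 25.1%. The median log2 fold change of the members was 0.43, 0.71 and 0.012 in these 3 comparisons, beside -0.013, 0.0011 and 0.025 over all genes.

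**Figure D2:**
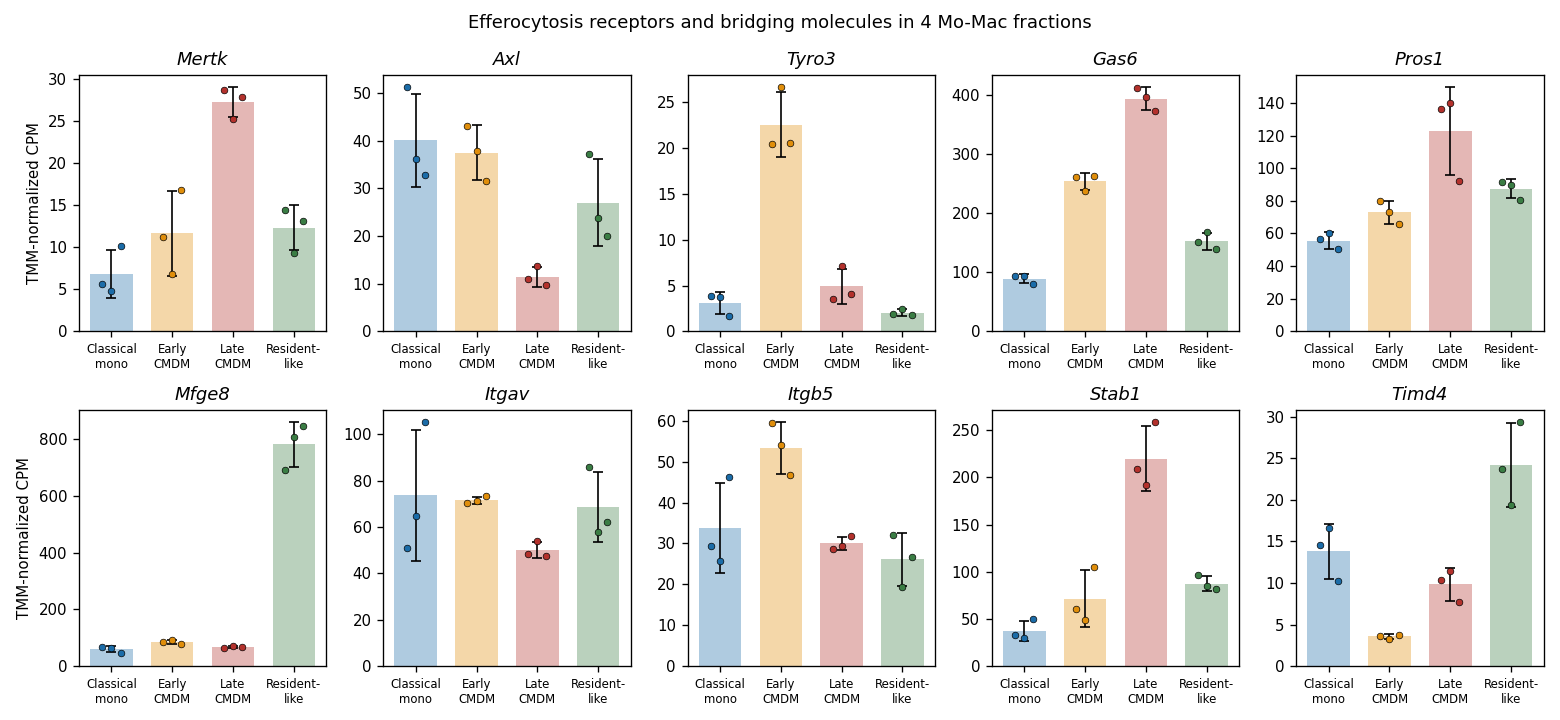
TMM-normalized CPM (linear axis from 0) of the 10 members in the 4 fractions. Points are libraries, bars are means and whiskers are the SD of 3 libraries. Under TMM, late CMDMs are highest for Mertk, Gas6, Pros1 and Stab1 (for Gas6 and Pros1 the step from early CMDMs changes sign under pan-leukocyte scaling), and resident-like macrophages for Mfge8, with 691.7 to 844.2 CPM.

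The promoters of the members that mark the late CMDM and resident-like fractions were read from RefSeq (GRCm38.p6) as the 250 bases before the gene start on the transcribed strand. Mertk and Stab1 are shown because both were highest in late CMDMs, and Mfge8 because it differed most between resident-like macrophages and the other fractions. These genes were picked after their values were seen. The windows lie at chr2:128698665-128698914 (plus strand) for Mertk, chr14:31168642-31168891 (minus strand) for Stab1 and chr7:79149061-79149310 (minus strand) for Mfge8. Capitals mark matches to GAGGAA, a core of PU.1 sites in macrophage genes, and to TGCTGA, a core of MAF sites, on either strand.
Mertk: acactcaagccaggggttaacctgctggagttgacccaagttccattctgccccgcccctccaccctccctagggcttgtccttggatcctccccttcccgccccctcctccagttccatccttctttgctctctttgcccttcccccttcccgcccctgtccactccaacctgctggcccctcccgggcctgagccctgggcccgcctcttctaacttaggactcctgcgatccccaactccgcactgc
Stab1: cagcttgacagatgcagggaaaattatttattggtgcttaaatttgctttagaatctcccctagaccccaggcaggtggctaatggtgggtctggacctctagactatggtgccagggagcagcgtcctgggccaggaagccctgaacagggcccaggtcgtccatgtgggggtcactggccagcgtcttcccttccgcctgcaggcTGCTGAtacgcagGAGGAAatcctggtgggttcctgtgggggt
Mfge8: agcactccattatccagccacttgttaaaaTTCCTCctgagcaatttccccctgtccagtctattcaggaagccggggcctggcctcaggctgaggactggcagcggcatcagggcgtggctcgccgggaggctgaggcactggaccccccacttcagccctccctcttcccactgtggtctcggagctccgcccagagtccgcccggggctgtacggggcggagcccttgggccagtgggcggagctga

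The Stab1 window held both motifs, TGCTGA at base -43 and GAGGAA at base -30 from the start, and the Mfge8 window held GAGGAA on the reverse strand at base -220. No match was in the Mertk window. Over 32851 mouse promoter windows of the same length, 23.3% held GAGGAA, 16.1% held TGCTGA and 5.85% held the STAT6 motif, TTC and GAA with 4 bases between them. Of the other members, Axl had a GAGGAA match at base -130, Itgav had matches at bases -218 and -7, Timd4 had TGCTGA at bases -150 and -44, and Pros1 had the STAT6 motif at base -222. No match overlapped another. The windows of Gas6 and Itgb5 held none of the 3 motifs, and the window of Tyro3 lies within an annotated exon of that gene and is not shown. A match describes these letters and not a bound site.

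Mertk (chromosome 2, 128698956 to 128802894 of GRCm38, plus strand, 19 exons) encodes the TAM receptor of resting tissue macrophages. Its levels were 5.66, 4.79 and 10.1 CPM in the classical monocyte libraries, 11.3, 6.83 and 16.8 CPM in the early CMDM libraries, 28.6, 25.2 and 27.9 CPM in the late CMDM libraries and 14.5, 9.34 and 13.1 CPM in the resident-like libraries. Every late CMDM library exceeded every other library, whereas the other 3 fractions overlapped. From early to late CMDMs Mertk rose 2.33-fold (log2 fold change 1.22, standard error 0.30, edgeR adjusted p = 0.00587), and from late CMDMs to resident-like macrophages it was 2.21-fold lower (log2 fold change -1.14, standard error 0.29, edgeR adjusted p = 0.0103). The rise was no longer called when libraries were scaled to 10 pan-leukocyte genes (0.42, edgeR adjusted p = 0.102), a scaling described further on. The lower level in resident-like macrophages was not called without the filter on low counts (edgeR adjusted p = 0.0667). The levels of early CMDMs, resident-like macrophages and classical monocytes, which are next to each other in order, did not pass the test.

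Axl (chromosome 7, 25757273 to 25788705, minus strand, 20 exons), the TAM receptor associated with inflammation, ran opposite to Mertk in late CMDMs. Classical monocytes had 51.2, 36.1 and 32.8 CPM, early CMDMs 43.1, 37.8 and 31.5 CPM, late CMDMs 10.99, 13.7 and 9.64 CPM and resident-like macrophages 37.3, 23.7 and 20.1 CPM. All late CMDM libraries were below all other libraries. Axl was 3.27-fold lower in late CMDMs than in early ones (log2 fold change -1.71, standard error 0.24, edgeR adjusted p = 7.25e-05) and 2.36-fold higher in resident-like macrophages than in late CMDMs (log2 fold change 1.24, standard error 0.24, edgeR adjusted p = 0.00134). Under the pan-leukocyte scaling the latter kept its direction but was not called (0.51, edgeR adjusted p = 0.111). Classical monocytes, early CMDMs and resident-like macrophages, the first 3 in order, had neighbouring levels that did not pass the test. All 6 fibroblast genes were also called lower in late than in early CMDMs, with sums of 477.5 to 498.6 CPM against 2988 to 4205 CPM. In the resident-like libraries, where Axl was higher than in late CMDMs, their sum was 275.6 to 357.6 CPM. The part of these genes in the level of Axl was not tested.

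Tyro3 (chromosome 2, 119797733 to 119818104, plus strand, 20 exons), the third TAM receptor, was highest in early CMDMs. Their libraries had 20.5, 26.7 and 20.6 CPM, against 3.82, 3.795 and 1.67 CPM in the classical monocyte libraries, 3.51, 7.11 and 4.11 CPM in the late CMDM libraries and 1.94, 2.49 and 1.77 CPM in the resident-like libraries. Early CMDMs did not overlap with any other fraction. Tyro3 was 7.30-fold higher in early CMDMs than in classical monocytes (log2 fold change 2.87, standard error 0.28, edgeR adjusted p = 6.73e-07) and 4.54-fold lower in late CMDMs than in early ones (log2 fold change -2.18, standard error 0.27, edgeR adjusted p = 1.7e-05). Each of the 6 keratinocyte genes also had its highest mean in these 3 libraries, and their part in the level of Tyro3 was not tested. The further fall to resident-like macrophages (log2 fold change -1.27, edgeR adjusted p = 0.00737) was lost without late CMDM replicate 2, at -0.89 (edgeR adjusted p = 0.0561).

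Per kilobase of the longest coding transcript, Axl was the most abundant TAM receptor in 3 fractions and Mertk in late CMDMs. Setting different genes side by side in this way, here and below, presumes that reads spread evenly over transcripts, which was not checked. In late CMDMs Mertk had 6.32 ± 0.42, Axl 2.68 ± 0.48 and Tyro3 1.10 ± 0.43 CPM per kb (SD, n = 3). In classical monocytes the order was Axl with 9.38 ± 2.30, Mertk with 1.59 ± 0.66 and Tyro3 with 0.694 ± 0.276 CPM per kb. The ratio of Mertk to Axl was 2.58, 1.82 and 2.86 in the late CMDM libraries. It was 0.110, 0.132 and 0.305 in classical monocytes, 0.259, 0.179 and 0.531 in early CMDMs and 0.385, 0.391 and 0.648 in resident-like macrophages. This ratio is taken within a library, so that no scaling of libraries alters it, and it was above 1 in the 3 late CMDM libraries and below 1 in the other 9. It shows unequal change of the pair, and not which of them changed or in which cell type.

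**Figure D3:**
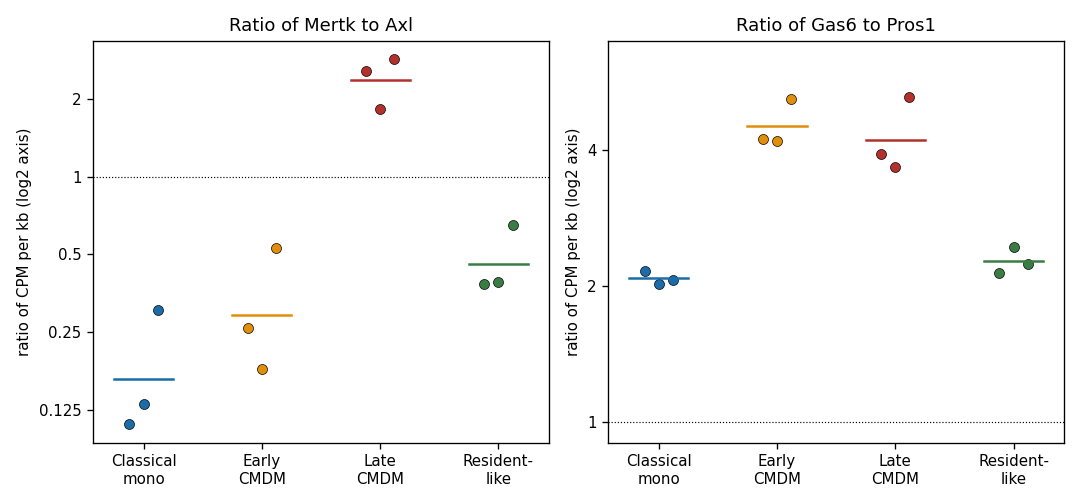
Ratios of CPM per kb (log2 axis) of Mertk to Axl and of Gas6 to Pros1 within each library. Points are libraries, lines are geometric means of 3 and the dotted line marks equal levels. Mertk exceeds Axl in the 3 late CMDM libraries, at 1.82 to 2.86, and Gas6 exceeds Pros1 in every library, at 2.02 to 5.26.

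Gas6 (chromosome 8, 13465374 to 13494490, minus strand, 15 exons), which bridges phosphatidylserine to all 3 TAM receptors, differed between all 4 fractions. Its levels were 94.4, 93.8 and 80.0 CPM in the classical monocyte libraries, 261, 237 and 264 CPM in the early CMDM libraries, 412, 396 and 373 CPM in the late CMDM libraries and 151, 168 and 140 CPM in the resident-like libraries. No pair of fractions overlapped, and all 3 neighbouring pairs in the order passed the test. Gas6 was 2.84-fold higher in early CMDMs than in classical monocytes (log2 fold change 1.51, standard error 0.10, edgeR adjusted p = 1.41e-08) and 2.58-fold lower in resident-like macrophages than in late CMDMs (log2 fold change -1.36, standard error 0.10, edgeR adjusted p = 9.8e-08). The difference of late from early CMDMs (log2 fold change 0.63, standard error 0.10, edgeR adjusted p = 0.000162) turned to -0.24 under the pan-leukocyte scaling (edgeR adjusted p = 0.174), where the median of all genes was -0.85.

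Pros1 (chromosome 16, 62854307 to 62929346, plus strand, 15 exons) encodes protein S, an anticoagulant cofactor that also bridges to Mertk and Tyro3. Levels were 56.6, 60.1 and 50.3 CPM in the classical monocyte libraries, 79.9, 73.3 and 65.7 CPM in the early CMDM libraries, 137, 140 and 92.0 CPM in the late CMDM libraries and 91.8, 89.4 and 80.8 CPM in the resident-like libraries. No pair of fractions overlapped, although late CMDM library 3 was close to the resident-like libraries and well below late CMDM libraries 1 and 2. Late CMDMs exceeded early CMDMs 1.68-fold (log2 fold change 0.75, standard error 0.14, edgeR adjusted p = 0.000563), and it turned to -0.14 under the pan-leukocyte scaling, again above the median of all genes. The difference of resident-like macrophages from late CMDMs (log2 fold change -0.49, standard error 0.14, edgeR adjusted p = 0.0139) was not called without late CMDM replicate 1, late CMDM replicate 2 or resident-like replicate 3 (edgeR adjusted p = 0.0681, 0.0822 and 0.0606). The small difference of early CMDMs from classical monocytes (0.39, edgeR adjusted p = 0.0319) was lost without classical monocyte replicate 1 or 3 or without early CMDM replicate 1 or 2, with edgeR adjusted p-values of 0.0538, 0.102, 0.112 and 0.0573.

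Per kilobase, Gas6 was above Pros1 in all 12 libraries. The ratio was 2.02 to 2.16 in classical monocytes, 4.19 to 5.20 in early CMDMs, 3.67 to 5.26 in late CMDMs, and resident-like macrophages had 2.13 to 2.44. Both CMDM fractions lay above the other 2 fractions without overlap, while early and late CMDMs overlapped.

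Mfge8 (chromosome 7, 79133768 to 79149060, minus strand, 10 exons) encodes MFG-E8, which binds phosphatidylserine with its C domains and αv integrins with an RGD motif. It showed the largest difference of any member. The resident-like libraries had 692, 806 and 844 CPM, against 67.2, 64.1 and 48.0 CPM in the classical monocyte libraries, 85.4, 90.8 and 78.8 CPM in the early CMDM libraries and 63.8, 72.6 and 66.5 CPM in the late CMDM libraries. Each resident-like library was far above the other 9, which lay within 48.0 to 90.8 CPM. Mfge8 was 11.5-fold higher in resident-like macrophages than in late CMDMs (log2 fold change 3.53, standard error 0.14, edgeR adjusted p = 2.85e-10), 9.18-fold higher than in early CMDMs and 13.1-fold higher than in classical monocytes, and it remained called in all 3 comparisons under every alternative tried. Cd207 and the dendritic cell gene Cd209a were also highest in these libraries, whereas Flt3, Clec9a and Ccr7 had higher means in classical monocytes, and the part of these genes in the level of Mfge8 was not tested. Per kilobase, Mfge8 reached 367 ± 37.3 CPM in the resident-like libraries, above the 60.01 ± 5.6 CPM of Gas6 in the same libraries, whereas in late CMDMs Gas6 had 155 ± 7.8 and Mfge8 31.8 ± 2.1 CPM per kb (SD, n = 3).

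Mfge8 also was 1.42-fold higher in early CMDMs than in classical monocytes (log2 fold change 0.51, standard error 0.13, edgeR adjusted p = 0.00357). Early and late CMDMs did not overlap, yet their difference did not pass the test (-0.33, edgeR adjusted p = 0.0579).

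The subunits of αvβ5, the integrin that receives MFG-E8, did not share this pattern. Itgav (chromosome 2, 83724397 to 83806916, plus strand, 30 exons), the αv subunit, had 50.8, 64.7 and 105 CPM in the classical monocyte libraries, a range that spanned the early CMDM (70.3 to 73.1 CPM) and resident-like libraries (57.9 to 85.7 CPM). Late CMDMs were lowest, at 48.4, 54.0 and 47.6 CPM. The largest difference was that of late CMDMs from classical monocytes (log2 fold change -0.56, standard error 0.21, edgeR adjusted p = 0.0568). DESeq2 called it (adjusted p = 0.0414), and classical monocyte replicate 3 was the library farthest from the others.

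Itgb5 (chromosome 16, 33829665 to 33949338, plus strand, 15 exons), the β5 subunit, was highest in early CMDMs with 59.4, 54.0 and 46.7 CPM. Classical monocytes had 29.3, 25.8 and 46.3 CPM, late CMDMs 28.6, 29.5 and 31.9 CPM and resident-like macrophages 32.2, 19.4 and 26.8 CPM, and these 3 fractions overlapped. It was 1.78-fold lower in late CMDMs than in early ones (log2 fold change -0.83, standard error 0.20, edgeR adjusted p = 0.00549). The difference of early CMDMs from classical monocytes (0.66, standard error 0.20, edgeR adjusted p = 0.0149) was not called without classical monocyte replicate 1 or 2 or early CMDM replicate 1 (edgeR adjusted p = 0.0605, 0.0611 and 0.0563), nor without the filter on low counts (edgeR adjusted p = 0.0613).

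Stab1 (chromosome 14, 31139013 to 31168641, minus strand, 69 exons) encodes Stabilin-1, a scavenger receptor of macrophages and of some endothelial cells that binds phosphatidylserine. Its levels were 32.9, 29.4 and 49.8 CPM in the classical monocyte libraries, 60.6, 48.7 and 106 CPM in the early CMDM libraries, 209, 192 and 259 CPM in the late CMDM libraries and 96.2, 84.4 and 81.5 CPM in the resident-like libraries. The late CMDM libraries stood apart, and early CMDM replicate 3 lay above the resident-like libraries while the other early CMDM libraries lay below them. From early CMDMs Stab1 rose 3.07-fold in late ones (log2 fold change 1.62, standard error 0.26, edgeR adjusted p = 0.000351) and remained called at 0.82 under the pan-leukocyte scaling. It was 2.52-fold lower in resident-like macrophages than in late CMDMs (log2 fold change -1.33, standard error 0.26, edgeR adjusted p = 0.0018). The difference of early CMDMs from classical monocytes (0.94, standard error 0.26, edgeR adjusted p = 0.0102) was not called without the filter on low counts (edgeR adjusted p = 0.057). The summed level of the 7 endothelial genes was highest in the same fraction as Stab1, with Lyve1 at a mean of 57.6 CPM and Prox1 at 15.2 CPM, whereas Cdh5 was lower there than in early CMDMs. Their part in the level of Stab1 was not tested.

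Timd4 (chromosome 11, 46810800 to 46844332, plus strand, 9 exons) encodes TIM-4, a tethering receptor known from long-lived resident macrophages. Resident-like macrophages had 23.7, 19.4 and 29.4 CPM, classical monocytes 14.6, 16.7 and 10.2 CPM, late CMDMs 10.4, 11.4 and 7.69 CPM and early CMDMs 3.65, 3.29 and 3.799 CPM. Classical monocytes and late CMDMs overlapped, and no other fractions did. Timd4 was 3.85-fold lower in early CMDMs than in classical monocytes (log2 fold change -1.95, standard error 0.22, edgeR adjusted p = 2.25e-06), a difference that shrank to -0.19 and was not called under the pan-leukocyte scaling (edgeR adjusted p = 0.451), where the median of all genes was 1.76. It was 2.74-fold higher in late CMDMs than in early ones (log2 fold change 1.46, standard error 0.22, edgeR adjusted p = 0.000114) and again 2.46-fold higher in resident-like macrophages than in late CMDMs (log2 fold change 1.30, standard error 0.20, edgeR adjusted p = 0.000134).

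**Figure D4:**
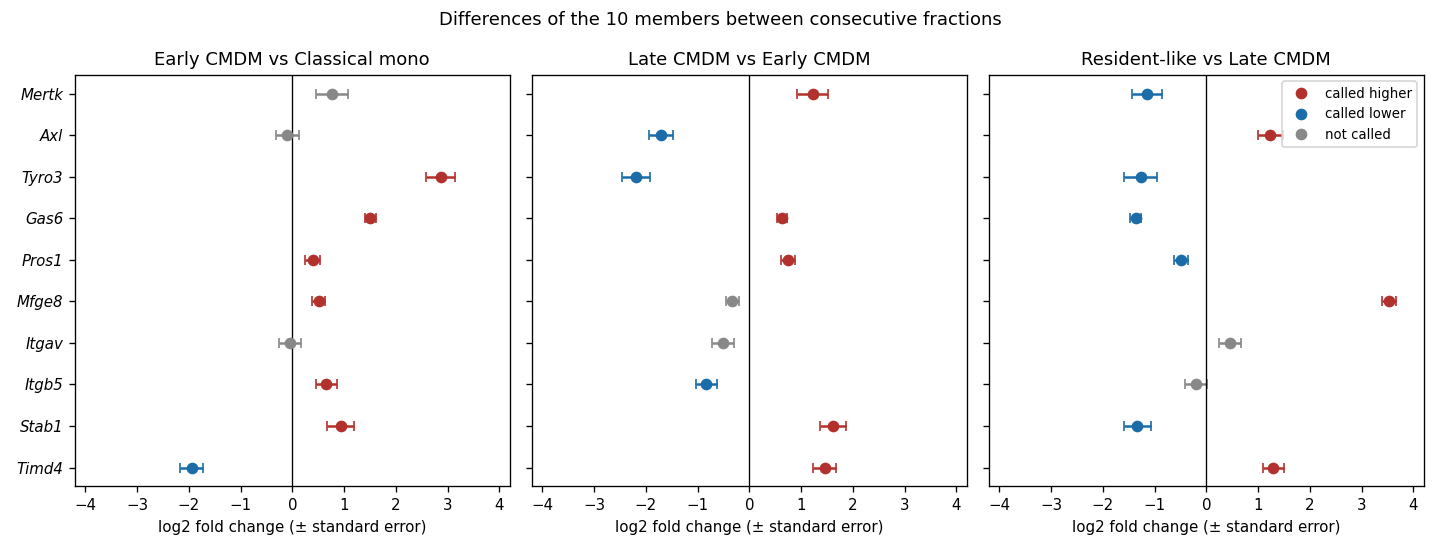
Log2 fold changes (points) and standard errors (whiskers) of the 10 members in 3 comparisons of consecutive fractions, with all 12 libraries in the fit. Red and blue mark genes called higher and lower at an adjusted p under 0.05, and grey marks genes not called. Mertk, Gas6, Pros1 and Stab1 rise from early to late CMDMs (under pan-leukocyte scaling Gas6 and Pros1 change sign in this step) and fall to resident-like macrophages, whereas Axl does the reverse.

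The early CMDM libraries and, to a lesser degree, the late CMDM libraries held fewer leukocyte transcripts than the classical monocyte and resident-like libraries. The members were therefore also compared after scaling each library to 10 genes expressed across leukocytes (Ptprc, Cd53, Coro1a, Laptm5, Lcp1, Arhgdib, Rac2, Itgb2, Was and Vav1). This moved the median log2 fold change of all tested genes to 1.76 in early CMDMs against classical monocytes, -0.85 in late against early CMDMs and -0.71 in resident-like macrophages against late CMDMs. It also moved the median against classical monocytes to 0.89 in late CMDMs and to 0.19 in resident-like macrophages, and to -1.55 in resident-like macrophages against early CMDMs. In late against early CMDMs Stab1 (0.82), Timd4 (0.60), Mertk (0.42), Pros1 (-0.14) and Gas6 (-0.24) then lay above the median of all genes, and Axl (-2.60), Tyro3 (-3.07), Itgb5 (-1.73), Itgav (-1.39) and Mfge8 (-1.22) lay below it. In resident-like macrophages against late CMDMs, Mfge8 (2.82) and Timd4 (0.58) remained called higher, and Gas6 (-2.07), Stab1 (-2.04), Tyro3 (-1.99), Mertk (-1.85) and Pros1 (-1.21) remained called lower.

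**Figure D5:**
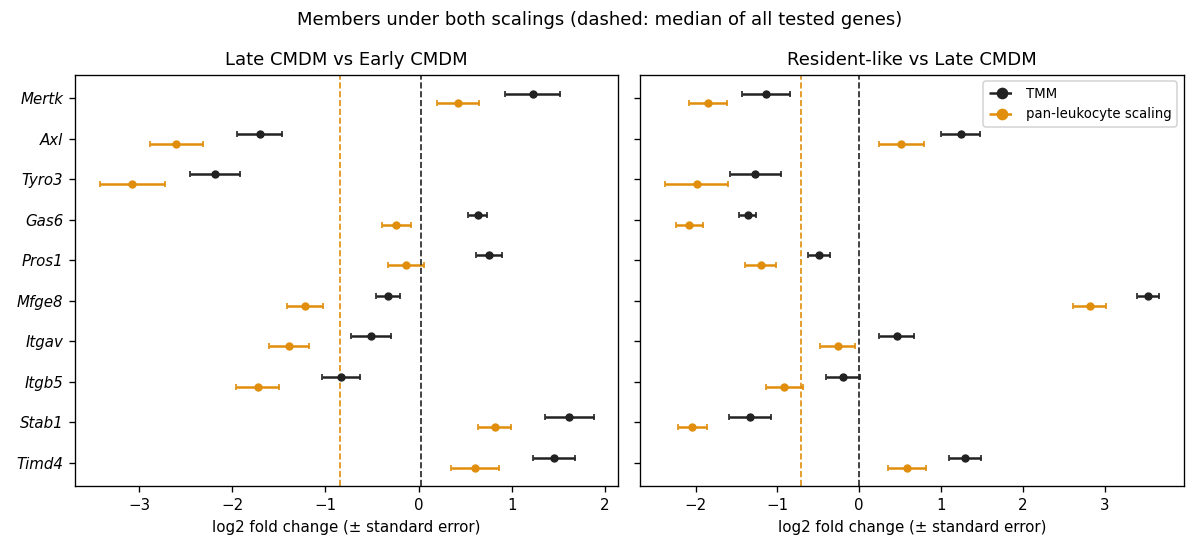
Log2 fold changes (points) and standard errors (whiskers) of the members under TMM (black) and under scaling to 10 pan-leukocyte genes (orange). Dashed lines are the median of all tested genes, which the latter moves to -0.85 and -0.71. Gas6 and Pros1 change sign in late against early CMDMs and Itgav in resident-like macrophages against late CMDMs.

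Other genes of efferocytosis were read from a list of 49, of which 44 were tested. From early to late CMDMs 22 of the 44 rose, against 14.4% of all tested genes, and 5 fell, against 17.5% (median log2 fold change 0.49, against 0.021 over all genes). Under the pan-leukocyte scaling, which puts the median of all genes at -0.85 in this comparison, 4 of the 44 were called higher, namely the 3 C1q genes and Trem2, and 22 lower (median -0.37), and 10 of the 22 that rose under TMM changed sign, among them Cd300a (-0.11), Elmo1 (-0.041), Rhog (-0.27) and Adam17 (-0.37). The directions given next are those under TMM. Among 13 tested recognition receptors 8 rose and none was called lower. Trem2, a lipid-sensing receptor, had 112, 83.0 and 156 CPM in early and 296, 241 and 315 CPM in the late CMDM libraries (log2 fold change 1.28, standard error 0.24, edgeR adjusted p = 0.00099). Cd36, a scavenger receptor for oxidized lipids, rose by 1.22, the αM integrin Itgam by 0.99 and the inhibitory receptor Cd300a by 0.74. Of 7 tested bridging molecules the 3 C1q chains rose, with C1qa at 285, 252 and 403 CPM in early and 1090, 1060 and 947 CPM in the late CMDM libraries (log2 fold change 1.72, standard error 0.19, edgeR adjusted p = 8.3e-06), whereas the pentraxin Ptx3 fell by 3.04 and Thbs1 and Lgals3 also fell.

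The machinery behind the receptors was read in the same comparison. Of 10 engulfment genes, Elmo1 (0.82) and Rhog (0.57), which act upstream of Rac, rose, and the adaptor Gulp1 fell by 1.62. Of 10 genes for handling the engulfed corpse 8 rose, among them the lysosomal acid lipase gene Lipa (1.02) and the lipid-activated nuclear receptor gene Pparg (0.86), and Rxra fell by 0.58. Of 4 genes for shedding and feedback of TAM receptors only Adam17, which encodes a sheddase of Mertk, rose (0.50), and Socs1 (0.37) and Socs3 (0.27) did not pass the test.

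Resident-like macrophages differed from late CMDMs in 15 of the 44, of which 10 were higher, against 12.7% of all genes, and 5 lower, against 15.4% (median 0.16, against 0.0028 over all genes). The pan-leukocyte scaling left 2 higher, Havcr2 (1.64) and Elmo1 (0.42), and 29 lower, and 6 of the 10 changed sign, among them Cd300a (-0.047), Rac1 (-0.21) and Lgals3 (-0.27). Havcr2, which encodes the phosphatidylserine receptor TIM-3, had 18.5, 17.8 and 20.8 CPM in the late CMDM libraries and 99.4, 95.5 and 95.5 CPM in the resident-like libraries (log2 fold change 2.35, standard error 0.12, edgeR adjusted p = 1.73e-09). Elmo1 (1.13), Abca7 (0.78), Ucp2 (0.80), Cd300a (0.66), Rac1 (0.51) and Lgals3 (0.44) were also higher under TMM. The β3 integrin gene Itgb3 (-1.45), the bridging molecule gene Thbs1 (-1.20), the nuclease gene Dnase2a (-0.59) and Rxra (-0.57) were lower. Under TMM, Trem2 (-0.50, edgeR adjusted p = 0.134), C1qa (0.079, edgeR adjusted p = 0.799) and Ptx3 (-0.64) did not pass the test. None of the 4 shedding and feedback genes was called there either, with Adam10 at -0.20, Adam17 at 0.17 and Socs3 at 0.16. Under the pan-leukocyte scaling, with the median of all genes at -0.71, all of these were called lower. Among them were Trem2 (-1.21), C1qa (-0.63), Ptx3 (-1.35), Adam10 (-0.91), Adam17 (-0.54) and Socs3 (-0.55). Between early CMDMs and classical monocytes 5 of the 44 were higher in early CMDMs under TMM, namely the 3 C1q genes, Dock1 and Rxra, against 24.2% of all genes, and 24 were lower, against 20.6% (median -0.45), among them 10 of the 13 recognition receptors. The pan-leukocyte scaling turned 19 of these 24, with 36 of the 44 then called higher and 2 lower (median 1.32, against 1.76 over all genes).

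Late CMDMs exceeded classical monocytes in 11 of the 44, against 18.1% of all genes, and were lower in 19, against 17.5% (median -0.25). With the pan-leukocyte scaling 28 were higher and 7 lower (median 0.66, against 0.89 over all genes). Resident-like macrophages exceeded classical monocytes in 14, against 10.8%, and were lower in 9, against 12.9% (median -0.052), and no such call changed sign with that scaling. They exceeded early CMDMs in 28, against 21.4%, and were lower in 5, against 25.1% (median 0.66), and the scaling turned 25 of the 28, with 2 then called higher and 32 lower. The list genes that did not pass the filter were Marco, Stab2, Adgrb1, Megf10 and Apoh, with 0 to 12 counts per library.

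For each member the genes with the most similar course were sought by Pearson's r of log2 CPM over the 12 libraries, among 18877 genes with a mean of at least 1 CPM. These values are descriptions, since the 12 libraries share 4 fractions. Mertk was closest to Pla2g15 (r = 0.991), a lysosomal phospholipase gene, Slc17a5 (0.986) and Mfsd11 (0.983). Stab1 was closest to Sec14l1 (0.992), Ap2a2 (0.991) and Tmem37 (0.990), and Pros1 to Enpep (0.986), Reps2 (0.967) and Pla2g2d (0.966). Gas6 was closest to Kctd4 (0.989), the transcription factor gene Maf (0.985) and Lap3 (0.983), and Maf had 77.6 ± 9.1 CPM in the classical monocyte libraries, 255 ± 14.1 CPM in the early CMDM libraries, 356 ± 17.3 CPM in the late CMDM libraries and 138 ± 3.0 CPM in the resident-like libraries (SD, n = 3).

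The nearest genes of Mfge8 were Cd207 (r = 0.995), Pak1 (0.992) and Hapln3 (0.990), of which Cd207 is a gene of the Langerhans cell list. Those of Tyro3 were Wnt10a (0.991), the epidermal protease gene Klk5 (0.990) and Cwh43 (0.990), and Klk5 had 23.6 ± 5.3 CPM in the early CMDM libraries against means of 1.71 to 3.70 CPM in the other fractions. Axl was closest to Elk4 (0.968), Arsi (0.958) and Podn (0.957), and Timd4 to Arsb (0.977), Batf (0.976) and Myadm (0.974). Itgb5 was closest to Uba2 (0.985), Ptdss1 (0.945) and Prrc2b (0.941), and Itgav to Itprid2 (0.968) and Pgam5 (0.939).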

How the data were processed

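Bulk RNA-seq of 12 libraries was analysed, grouped by the labelled cell subtype. The file holds counts as the authors deposited them, summed per gene symbol and not normalized. Reads had been trimmed with cutadapt 4.1 and mapped on a single strand to Ensembl reference RNA of GRCm38 with Bowtie2 2.4.5. Reads shared by paralogs could be split by this counting, as could reads of overlapping transcripts.

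The counts were fitted with edgeR 4.0.16 in R 4.3.3 (TMM, filterByExpr by fraction, robust quasi-likelihood fit with 1 coefficient per fraction), after the test had been tested on simulated data. The study's methods name TCC, whose strategy (DEGES, 3 rounds) was an alternative. The chi-square between replicate libraries was 4.24 to 21.9 for each degree of freedom, and no library was treated as a duplicate. The biological coefficient of variation was 13.2%. Positions and lengths are from the GENCODE annotation of GRCm38, and promoters from RefSeq.

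The members and lists were chosen with earlier results of these data known. Named genes are the 10 members, from each list of other efferocytosis genes the 3 with the lowest adjusted p in late against early CMDMs and in resident-like macrophages against late CMDMs, Trem2 and C1qa, the 3 genes most similar to each member (1 of those of Itgav is not reported here), and marker genes. Dock1 was named after its values were seen, as 1 of 5 genes called higher, and the 5 untested list genes are named to account for the list. Further alternatives were DESeq2 1.42.0, RLE size factors, library size, scaling to pan-leukocyte genes, other filters and thresholds, fits of 6 libraries, leaving out genes over 1% of counts, a replicate block and leaving out each library.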

Additional observations from a re-analysis of the deposited data

How the results depend on the processing

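Mfge8 in resident-like macrophages kept its direction and its call under every alternative in all 3 comparisons, whereas the scaling to 10 pan-leukocyte genes shifts all genes together and, of 60 differences of members, left 36 with their direction and call, turned 12, made 9 called and lost the call of 3. It turned Gas6 (-0.24) and Pros1 (-0.14) in late against early CMDMs, Itgav (-0.26) in resident-like macrophages against late CMDMs, and Axl (1.70) and Itgav (1.75) in early CMDMs against classical monocytes. Against classical monocytes it also turned Itgav (0.36), Itgb5 (0.74) and Timd4 (0.41) in late CMDMs and Itgav (0.10) in resident-like macrophages, and against early CMDMs Mertk (-1.43), Pros1 (-1.34) and Stab1 (-1.22) in resident-like macrophages. With it, 8 members instead of 5 were called in late CMDMs against classical monocytes, 10 instead of 5 in resident-like macrophages against early CMDMs, and 31 instead of 15 of the other efferocytosis genes in resident-like macrophages against late CMDMs. DEGES turned Axl (0.0056) and Itgav (0.061) in early CMDMs against classical monocytes and Mertk (-0.035) in resident-like macrophages against early CMDMs, as did library size only for the latter (-0.077). Of these, Gas6 and Pros1 had been called under TMM. The pan-leukocyte scaling and the omission of the filter on low counts each lost 3 further member calls.

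The share of called genes that were higher was 45.1% in resident-like macrophages against late CMDMs, and 28% with library size only. It was 45.7% and 24.1% against classical monocytes, and 46% and 31.5% against early CMDMs, where DEGES gave 35.3%. With library size only the median of all genes in these comparisons was -0.13, -0.17 and -0.14. Under the pan-leukocyte scaling the share was 97.8% in early CMDMs against classical monocytes (54% with TMM), 1.47% in late against early CMDMs (45.1%), 4.03% in resident-like macrophages against late CMDMs, 93.8% in late CMDMs (50.8%) against classical monocytes, 64.3% in resident-like macrophages against the same, and 1.63% in resident-like macrophages against early CMDMs.

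At a log2 fold change of at least 1 the members called fell from 7 to 3 in early CMDMs against classical monocytes, from 8 to 5 in late against early CMDMs and from 5 to 2 in resident-like macrophages against classical monocytes. The other efferocytosis genes called fell to 16, 9, 4, 15, 13 and 17, in the order early against classical, late against early, resident-like against late, late against classical, resident-like against classical and resident-like against early, from 29, 27, 15, 30, 23 and 33. At an adjusted p under 0.01, 4 members were called in early CMDMs and 15 other genes in resident-like macrophages against classical monocytes. At 0.1, 8 members were called in late CMDMs against classical monocytes. Fits of 6 libraries called 24 other genes in resident-like macrophages against late CMDMs, and the cause was not tested.

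Leaving out each library gave 5 to 7, 8 to 10, 6 to 9, 5 to 6, 5 to 7 and 5 to 6 members called in that order of comparisons. It turned only differences that had not been called, namely Axl (-0.22 to 0.13) and Itgav (-0.24 to 0.31) in early CMDMs against classical monocytes, Itgb5 (-0.33 to 0.13) in late CMDMs and Itgav (-0.30 to 0.25) in resident-like macrophages against classical monocytes, and Mertk (-0.19 to 0.45) and Itgav (-0.25 to 0.050) in resident-like macrophages against early CMDMs.

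Replicate numbers are shared by the fractions. Deviations of same-numbered libraries correlated by -0.0987 to 0.248, and 10 of 12 libraries correlated best with their own number, a hint from the data and not from the design. With a replicate block 8, 9, 8, 6, 7 and 7 members were called in that order of comparisons, and no member call was lost. Depth limits the lowest members, since Tyro3 had as few as 30 counts in a library.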
